A study of Drosophila melanogaster with 12 samples.

Results

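The diets of this series form a graded series, and the transcriptome was examined here along it as 1 straight-line response to the protein-to-carbohydrate (P:C) ratio. All 12 of the 12 samples of the series entered the fit. They were adult *Drosophila melanogaster* females taken as whole flies, with 3 samples on each of 4 diets, at P:C ratios of 0.25, 0.40, 0.55 and 0.70. The flies came from an outbred Baseline Population kept at 25 °C, and the food was isocaloric, with sugar and yeast varied against each other, so that P:C 0.25 was the carbohydrate-rich end and P:C 0.70 the protein-rich end. P:C 0.40 was the baseline diet of the population. Flies lived on their diet from the egg, 12 females were pooled in each sample, and all were frozen on day 13 post egg collection. Time since eclosion was therefore not held fixed, and the effect of a diet and that of the adult age reached on it cannot be told apart.

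In flies, yeast is the main source of amino acids and sugar that of carbohydrate. Amino acid supply acts through the TOR and insulin pathways on growth and on egg production, for which the ovary needs both continued cell division and yolk made by the fat body and the follicle cells. Midgut enzymes break food down before uptake, with amylase and maltases acting on starch and sugars and serine proteases on protein. A whole female contains ovary, gut, fat body, flight muscle and nervous system together, so a level describes the mixture of tissues in the fly.

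Library totals ran between 6094226 and 13245114 counts, and 9928 of the 15448 transcripts of the table were expressed highly enough to be tested. Levels are given as CPM, the counts of a transcript relative to the library total, with totals adjusted by TMM (trimmed mean of M-values, a factor that aligns the libraries on the bulk of their transcripts). CPM are not divided by transcript length, so they were compared between diets and not between transcripts. A total of 3 counts corresponded to 0.226 to 0.492 CPM, a limit that covers counting error only. The 80 transcripts of male accessory gland and testis in the table summed to 44.8 to 79.7 CPM per sample, and 27 of them had no count in any sample, while the 9 yolk protein and lipid transport transcripts summed to 46030 to 72010 CPM. Of 25 larval transcripts 18 had no count in any sample.

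The fit asked which transcripts rose or fell with the P:C ratio. The response is given as the change over the whole range, which is the fitted log2 difference at P:C 0.70 minus that at P:C 0.25, with its standard error, and a transcript was called at an adjusted p under 0.05 (edgeR quasi-likelihood test, Benjamini-Hochberg). Of the tested transcripts 36.7% were called, with 17.1% rising and 19.6% falling. The falling side held the larger changes, with a median difference between the outer diets of -0.86 among the 1941 falling transcripts and 0.38 among the 1701 rising ones. Most members of the muscle, photoreceptor, synapse and oxidative phosphorylation lists fell, and most of the DNA replication and germline lists rose, as described by function list below. The 33 lists hold 160 of the rising and 315 of the falling transcripts, so most called transcripts belong to no list. List members were chosen with earlier results of these data known. Their counts beside the shares over all transcripts are therefore a description and not independent support.

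The rising calls rested more on single samples than the falling ones did. Without the first sample of P:C 0.25 there were 473 rising transcripts, without sample 3 of that diet 1064, without the first sample of P:C 0.70 777 and without its second sample 433. The falling calls dropped by more than 1.5 times only without the second sample of P:C 0.70, to 1205. Counts of list members in fits without 1 sample, given below, are to be read against these totals. Scaling by library size alone put 54.5% of the calls on the rising side, against 46.7% with TMM, and moved the median change of all tested transcripts to 0.09, from 0.02. All changes below are relative to the TMM scaling.

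Both outer diets were needed for the calls. When the 3 samples of P:C 0.25 were left out, 1 transcript rose and 42 fell along the remaining 3 diets, and when those of P:C 0.70 were left out 27 rose and 83 fell. Leaving out an inner diet had less effect, with 1058 rising and 1823 falling without P:C 0.40, and 1889 rising and 2384 falling without P:C 0.55. These fits had 9 samples, and those without an outer diet also covered a shorter range of ratios.

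Each step between neighbouring diets was then estimated in a fit that gave every diet its own level. A step is the higher P:C ratio minus the lower, so for the first step the baseline diet stands on top. In the step from P:C 0.25 to P:C 0.40 1.34% of transcripts were called, 0.0806% higher (8 transcripts) and 1.26% lower (125). In the step from P:C 0.40 to P:C 0.55 0.0705% were called, 7 higher and 0 lower, while 396 transcripts had an unadjusted p under 0.05 and DESeq2 called 23 higher and 3 lower. In the step from P:C 0.55 to P:C 0.70 6.96% were called, 2.13% higher (211) and 4.83% lower (480). More transcripts were thus called at both ends of the series than in its middle.

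**Figure D1:**
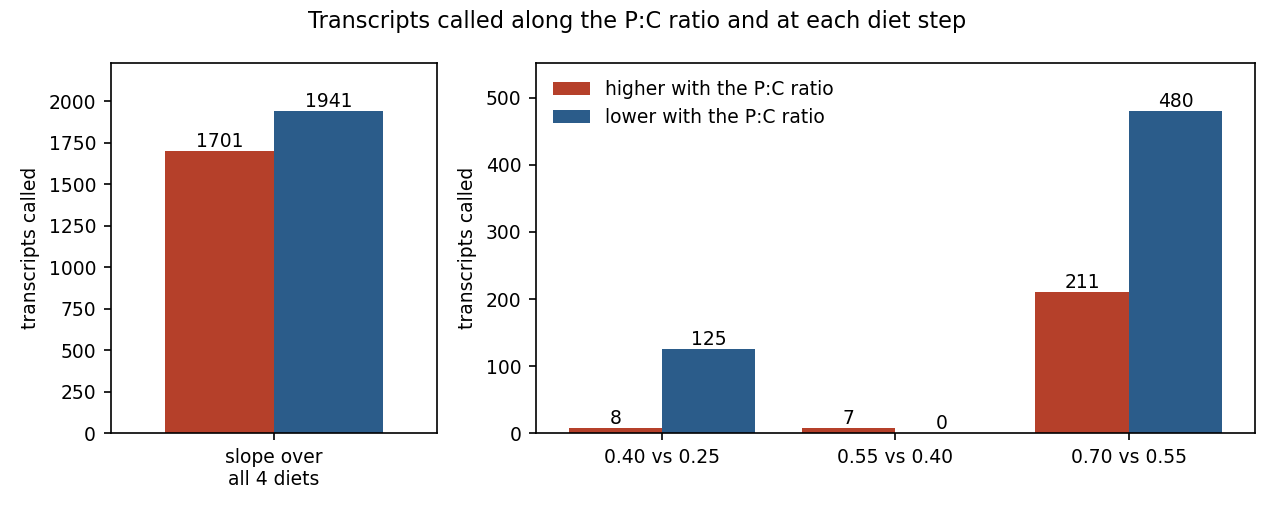
Number of transcripts called higher and lower (adjusted p under 0.05) along the whole P:C series and in each step between neighbouring diets. The middle step has 7 calls, the first 133 and the last 691, against 3642 for the straight line through all 12 samples.

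The sizes of these step counts depended on single samples. The first step had 12 calls without the first sample of P:C 0.25, 433 without its second and 8 without the third. It had 14 calls without the first and 27 without the second sample of P:C 0.40, 88 without the second sample of P:C 0.55 and 66 without the first of P:C 0.70. The last step had 38, 77 and 1938 calls without samples 1, 2 and 3 of P:C 0.55, and 36, 39 and 1458 without those of P:C 0.70. It had 309 calls without the third sample of P:C 0.25 and 405 without the first of P:C 0.40. The middle step had between 0 and 12 calls when a sample of any of the 3 higher ratios was left out, with 12 without the second sample of P:C 0.70. With scaling by library size alone, 53.8% of the calls of the last step were higher, against 30.5% with TMM. Steps of a function list are therefore described below by the median of its members and the range of that median over the fits that leave out 1 sample, and not by step calls. Step p values of single transcripts named below come from the fit of all 12 samples. How they held without 1 sample is not given.

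Muscle transcripts had the largest falls of the function lists with more than 20 tested members. All 31 transcripts of the sarcomere, the contractile unit of muscle, fell, with a median change over the range of -1.35, against 0.02 over all tested transcripts and 19.6% of all transcripts called as falling. The summed level of the sarcomere list was 14960, 11660 and 13680 CPM at P:C 0.25, 7927, 6606 and 8451 CPM at P:C 0.40, 8801, 6543 and 6797 CPM at P:C 0.55, and 4952, 4838 and 5776 CPM at P:C 0.70. The outer diets did not overlap with each other or with the inner diets, and the inner diets overlapped. In whole flies, a smaller share of muscle in the RNA of the fly and less of these transcripts per muscle cell cannot be told apart. The same limit holds for every list below, rising or falling, so the lists cannot be read as separate responses.

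Mlc2-RA, the myosin regulatory light chain (chr3R:30171438-30174551, dm6, minus strand), had 1560, 1450 and 1427 CPM at P:C 0.25, 726, 546 and 709.8 CPM at P:C 0.40, 734, 490.4 and 566 CPM at P:C 0.55, and 329, 338 and 364 CPM at P:C 0.70. Its change over the range was -1.96 (SE 0.19, adjusted p = 0.000138), and it was called lower in the first and the last step. Act88F-RA, the actin of the indirect flight muscles (chr3R:15439969-15442177), fell further, with a change of -3.04 (SE 0.32, adjusted p = 0.000138). It had 611, 682 and 605 CPM at P:C 0.25, 281, 142 and 172 CPM at P:C 0.40, 203, 81.3 and 94.7 CPM at P:C 0.55, and 68.2, 66.7 and 83.5 CPM at P:C 0.70. The levels of Act88F-RA at P:C 0.55 overlapped with those at P:C 0.40 and at P:C 0.70. Mlc1-RD, a myosin light chain, changed by -1.69 (SE 0.18) and Tm2-RA, a tropomyosin, by -1.499 (SE 0.16). Act79B-RB, a muscle actin, changed by -1.98 (SE 0.31). The smallest fall among the 31 members was 0.28 on the log2 scale.

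The sarcomere list dropped in both outer steps and changed little in the middle one. The median of the 31 members was -0.81 in the first step, -0.07 in the middle step and -0.55 in the last, and 31, 22 and 29 members lay below 0. Over the fits that leave out 1 sample these medians ranged between -0.91 and -0.69, between -0.21 and 0.01, and between -0.67 and -0.40. The list had 13 falling members without P:C 0.70, where 83 of all 9856 tested transcripts fell. It had 0 without P:C 0.25, where 42 of 9792 fell.

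Of 11 transcripts of muscle calcium handling 8 fell, with a median change of -0.94, against 19.6% falling over all transcripts. Scp1-RB, a calcium-binding protein of the sarcoplasm, had 550.4, 408 and 603 CPM at P:C 0.25, 287, 174 and 322 CPM at P:C 0.40, 332, 197 and 220.0 CPM at P:C 0.55, and 126, 142 and 176 CPM at P:C 0.70, a change of -1.67 (SE 0.25, adjusted p = 0.000553). RyR-RJ, the calcium release channel, and Ca-alpha1D-RH, a voltage-gated calcium channel that overlaps another transcript, both changed by -1.14. The other 3 members of the list did not pass the test, namely Sln-RA at -0.63, Itp-r83A-RB at -0.06 and CG32103-RE at 0.08. Sln-RA entered the list by its symbol, and a role of it in calcium handling was not checked.

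**Figure D2:**
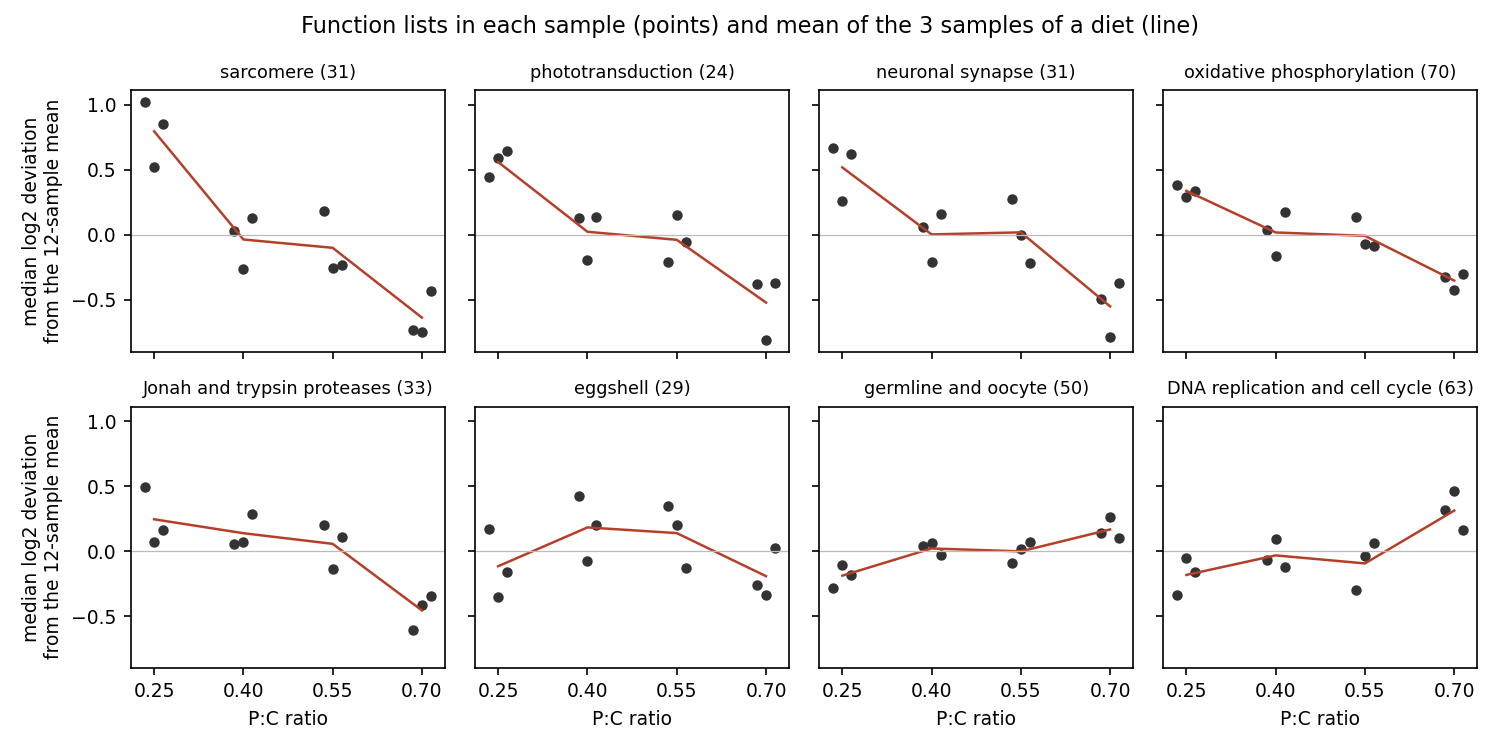
Median log2 deviation of the members of 8 function lists from their mean over all 12 samples, by sample (each point is 1 sample, 3 per diet) along the P:C ratio. The sarcomere list lies between 0.52 and 1.02 at P:C 0.25 and between -0.75 and -0.43 at P:C 0.70, with the inner diets between.

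Transcripts of the eye and of the nervous system fell with the ratio as well. Of 24 phototransduction transcripts, which build the light response of photoreceptors, 23 fell with a median of -1.01, and the exception was rdgB-RH at -0.12. Of 31 transcripts of the neuronal synapse 29 fell with a median of -0.975, and Csp-RF at 0.02 and VGAT-RA at -0.64 did not pass the test. Neither list had a rising member, at 17.1% of all transcripts rising.

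The light-activated channel trp-RB (chr3R:29914521-29920289) had 177, 196 and 206 CPM at P:C 0.25, 132, 111 and 149.7 CPM at P:C 0.40, 109, 142 and 123 CPM at P:C 0.55, and 87.5, 70.8 and 86.7 CPM at P:C 0.70. It changed by -1.14 (SE 0.14, adjusted p = 0.000244), and its samples at P:C 0.40 and P:C 0.55 overlapped. ninaC-RB, a myosin of the photoreceptor, and Gbeta76C-RA, the beta subunit of the visual G protein, changed by -1.20 (SE 0.15) and -1.19 (SE 0.15). Synaptobrevin nSyb-RK, a vesicle protein needed for transmitter release (chr3L:1630348-1637752), had 86.3, 75.6 and 85.9 CPM at P:C 0.25, 57.0, 52.0 and 61.4 CPM at P:C 0.40, 55.9, 53.7 and 44.1 CPM at P:C 0.55, and 36.3, 32.9 and 37.1 CPM at P:C 0.70. Its change was -1.15 (SE 0.11, adjusted p = 0.000138), with no overlap between either outer diet and the rest. Choline acetyltransferase Cha-RB changed by -1.16 (SE 0.13) and the release regulator complexin, cpx-RG, by -0.98 (SE 0.12), and both overlap another transcript of the table on the opposite strand.

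The medians of both lists moved in the outer steps and little in the middle one, like that of the sarcomere list. In the test of curvature given below, no member of these lists was called. The median of the phototransduction list was -0.53 in the first step, -0.07 in the middle and -0.48 in the last, and that of the synapse list -0.555, 0.03 and -0.55, where the middle value was -0.01 with scaling by library size alone. Leaving out 1 sample moved the first and last medians of phototransduction within -0.62 to -0.40 and -0.59 to -0.35, and those of the synapse within -0.62 to -0.43 and -0.66 to -0.41. The middle medians ranged over -0.17 to 0.02 for phototransduction and -0.10 to 0.14 for the synapse, both across 0. Without P:C 0.25 there were 0 falling phototransduction and 1 falling synapse transcript, and without P:C 0.70 2 of each. Over all tested transcripts 42 of 9792 and 83 of 9856 fell in those fits.

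Energy metabolism was another large falling group, set against 19.6% falling over all transcripts. Of 70 tested transcripts of oxidative phosphorylation, the subunits of the respiratory chain and the ATP synthase, 65 fell and 0 rose, with a median of -0.63. Their summed level was 26190, 24130 and 25180 CPM at P:C 0.25, 20350, 17740 and 21790 CPM at P:C 0.40, 21650, 18690 and 18780 CPM at P:C 0.55, and 16000, 14930 and 16140 CPM at P:C 0.70. As in muscle, the outer diets stood apart and the inner diets overlapped.

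The 5 members that did not pass were CG11043-RA, CG11455-RH, CG14077-RB, CG15434-RA and CG9603-RA, of which CG11043-RA and CG14077-RB had positive values (0.34 and 0.56). Cytochrome c, Cyt-c-p-RA (chr2L:16719932-16722644), had 718, 672 and 665 CPM at P:C 0.25, 524, 425 and 552 CPM at P:C 0.40, 487, 412 and 433 CPM at P:C 0.55, and 374, 329.6 and 367 CPM at P:C 0.70, a change of -0.90 (SE 0.10, adjusted p = 0.000138). CG3321-RC (ATPsynE, a subunit of the ATP synthase) changed by -0.67 (SE 0.08) and CG7712-RB (ND-B14, a complex I subunit, overlapping another transcript) by -0.78 (SE 0.10). The first, middle and last steps of the list had medians of -0.30, -0.04 and -0.35, within -0.39 to -0.22, -0.12 to 0.05 and -0.38 to -0.27 when 1 sample was left out. In the last step 69 of the 70 lay below 0.

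Glycolysis and trehalose metabolism moved less, with 11 of 26 transcripts falling, none rising and a median of -0.27. Over all transcripts 19.6% fell and 17.1% rose. Its leading member Gpo-1-RB, the mitochondrial glycerol-3-phosphate oxidase that hands cytosolic reducing equivalents to the respiratory chain, had 513, 358 and 487 CPM at P:C 0.25, 276, 205 and 316 CPM at P:C 0.40, 287, 232 and 217 CPM at P:C 0.55, and 161, 158 and 189.7 CPM at P:C 0.70. It changed by -1.32 (SE 0.17, adjusted p = 0.000312). Gapdh1-RA, glyceraldehyde-3-phosphate dehydrogenase, changed by -0.72 (SE 0.11) and Pfk-RE, phosphofructokinase, by -0.64 (SE 0.10). The medians of the steps were -0.19, 0.08 and -0.20.

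In fatty acid and triglyceride synthesis 13 of 31 transcripts fell and 1 rose, with a median of -0.26. This count was 8 without the first or the third sample of P:C 0.25 and 7 without the first or the second sample of P:C 0.70. v(2)k05816-RB (FASN2, a fatty acid synthase) fell by 1.23 on the log2 scale (SE 0.19), Fad2-RA, a fatty acid desaturase, by 1.03 (SE 0.20), and CG1942-RA (Dgat2, a diacylglycerol acyltransferase) by 1.52 (SE 0.30). Of 12 tested fatty acyl-CoA reductases, enzymes that make long-chain alcohols, 8 fell with a median of -0.63. Among them CG10096-RD, which overlaps another transcript, changed by -1.30 (SE 0.16) and wat-RA by -0.68 (SE 0.10). Fatty acid oxidation and lipolysis had 5 falling of 21, near the 19.6% over all transcripts, and the count was 3 without the second sample of P:C 0.25 and 2 without the first or second sample of P:C 0.70, and its median of -0.07 was close to that of all transcripts.

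Most gut proteases fell, mainly at the protein-rich end. Of 33 Jonah and trypsin serine proteases 20 fell and 0 rose, with a median of -0.64, against 19.6% falling over all transcripts. The first and middle steps had medians of -0.11 and -0.10, and over the fits without 1 sample both ranges crossed 0. The last step had a median of -0.55, within -0.62 to -0.46, and 32 of 33 members lay below 0. The summed level of the proteases was 28570, 22160 and 22760 CPM at P:C 0.25, 21830, 21780 and 25360 CPM at P:C 0.40, 25220, 21630 and 22770 CPM at P:C 0.55, and 13900, 15710 and 16970 CPM at P:C 0.70. The first 3 diets overlapped and all samples of P:C 0.70 lay below them.

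Jon65Ai-RB (chr3L:6053493-6054443) had 527, 399.5 and 455 CPM at P:C 0.25, 333, 366 and 424 CPM at P:C 0.40, 358, 282 and 371 CPM at P:C 0.55, and 158, 239.9 and 228 CPM at P:C 0.70. It changed by -1.06 (SE 0.17, adjusted p = 0.000865) and was lower in the last step (adjusted p = 0.0326). Jon65Aii-RA changed by -1.04 (SE 0.17) and zetaTry-RA, a trypsin, by -0.94 (SE 0.14). Reads of the proteases are uncertain where members are near copies of each other.

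Among carbohydrate-digesting enzymes more transcripts rose than fell, and the steps had another order. Of 25 transcripts 7 rose and 4 fell, with a median of 0.16, against 17.1% rising and 19.6% falling over all transcripts, and the falling count was 2 without the second sample of P:C 0.70. The medians were -0.06 in the first step, 0.66 in the middle step and -0.26 in the last, and the middle one kept within 0.49 to 0.68 when 1 sample was left out. In the middle step 7 of 25 members lay below 0, against 14 in the first and 17 in the last.

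The maltase Mal-A6-RD (chr2R:8465158-8467595) had 24.1, 35.2 and 16.7 CPM at P:C 0.25, 53.9, 22.4 and 59.9 CPM at P:C 0.40, 72.7, 74.8 and 69.1 CPM at P:C 0.55, and 134, 80.8 and 114 CPM at P:C 0.70. It rose by 2.09 on the log2 scale (SE 0.29, adjusted p = 0.000393), with no single step called. Mal-A7-RB, which had 1.63, 9.57 and 2.62 CPM at P:C 0.25 and 53.8, 18.9 and 31.1 CPM at P:C 0.70, rose by 2.99 (SE 0.56, adjusted p = 0.00197). The amylase Amy-p-RB had 518, 489 and 401 CPM at P:C 0.25, 423, 458 and 598 CPM at P:C 0.40, 834, 988 and 726 CPM at P:C 0.55, and 1075, 669 and 907 CPM at P:C 0.70, and rose by 1.06 (SE 0.20, adjusted p = 0.00199). Its samples fell into a low pair of diets and a high pair. The second amylase gene, Amy-d-RA, rose by 0.86 (SE 0.15), and the reads of the amylases, like those of the maltases, can be shared between near copies. Not every maltase moved, since Mal-A5-RC was at -0.05 (adjusted p = 0.527) and Mal-A3-RA at -0.08 (adjusted p = 0.74).

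**Figure D3:**
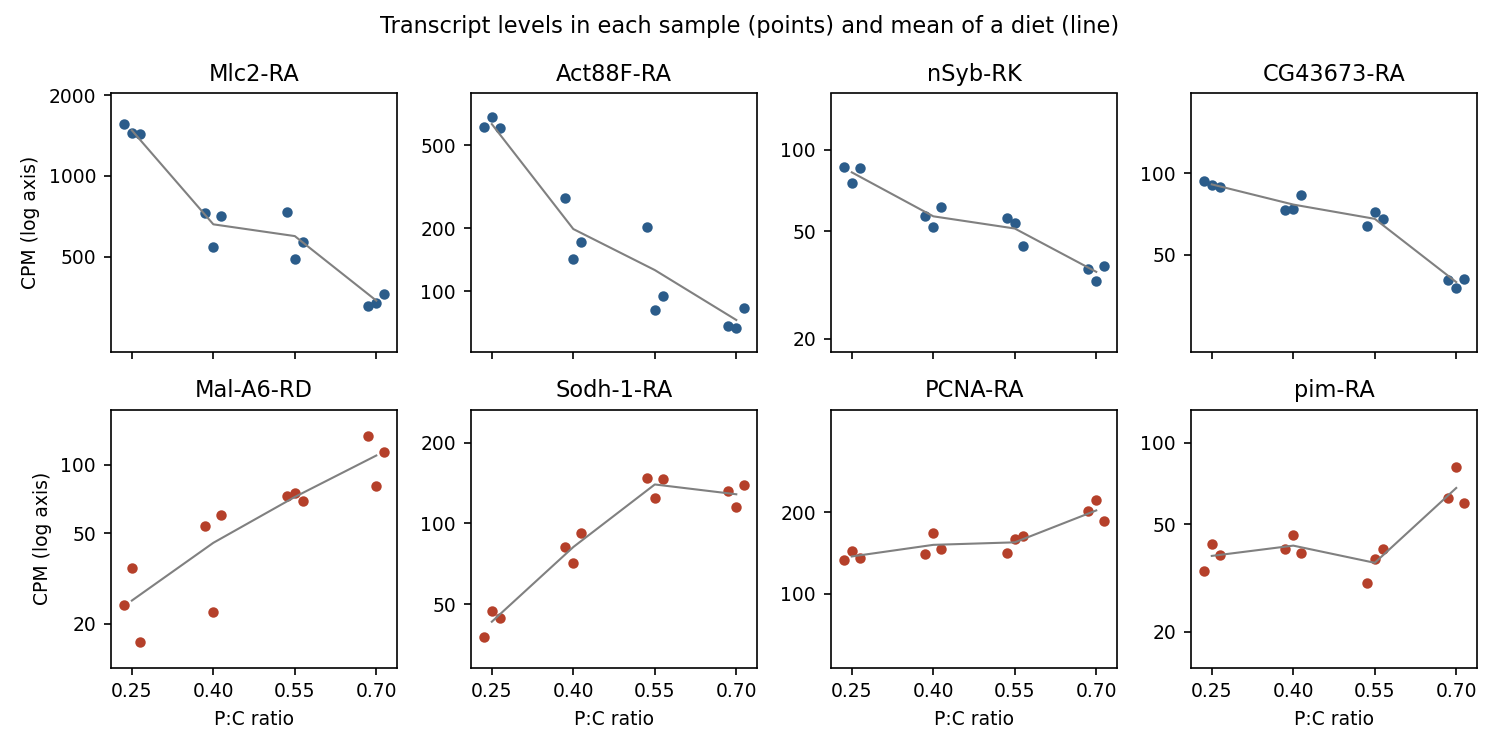
CPM (log axis) of 8 transcripts in each of the 12 samples along the P:C ratio. Mlc2, Act88F, nSyb and CG43673 are lowest at P:C 0.70, Mal-A6 is highest there, Sodh-1 is at its higher level already at P:C 0.55, and PCNA and pim are raised at P:C 0.70.

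Other rising transcripts had a large part of their rise between the inner diets. Sodh-1-RA, sorbitol dehydrogenase, which oxidises sorbitol to fructose (chr3R:7052335-7054541), had 37.5, 47.1 and 44.2 CPM at P:C 0.25, 82.0, 71.2 and 91.8 CPM at P:C 0.40, 148, 125 and 147 CPM at P:C 0.55, and 132, 115 and 139 CPM at P:C 0.70. It rose by 1.65 (SE 0.24, adjusted p = 0.000517) and was higher in the first step (adjusted p = 0.00655) and in the middle step (adjusted p = 0.0327), but not in the last (adjusted p = 0.443). Transferrin, Tsf1-RC, an iron-binding protein of the haemolymph, had 102, 134 and 156 CPM at P:C 0.25, 241, 122 and 165 CPM at P:C 0.40, 791, 365 and 485 CPM at P:C 0.55, and 502, 327 and 605 CPM at P:C 0.70. It rose by 2.235 on the log2 scale (SE 0.42, adjusted p = 0.00205), and the samples of P:C 0.55 and P:C 0.70 all lay above those of the other two diets. The odorant-binding protein Obp99a-RB had 91.3, 59.2 and 107 CPM at P:C 0.25, 138, 116 and 159.7 CPM at P:C 0.40, 266, 177 and 235 CPM at P:C 0.55, and 215, 193 and 273 CPM at P:C 0.70, and rose by 1.48 (SE 0.24, adjusted p = 0.000931).

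The larval serum protein Lsp2-RB, which overlaps another transcript that takes the same counts, had 259, 342 and 789 CPM at P:C 0.25, 497, 629 and 476 CPM at P:C 0.40, 1270, 1239 and 1590 CPM at P:C 0.55, and 1244, 806 and 1052 CPM at P:C 0.70. It rose by 1.51 (SE 0.41, adjusted p = 0.0144). Lsp1gamma-RA fell by 2.02 (SE 0.34) and Lsp1beta-RB was at 0.45 (adjusted p = 0.442), so the serum proteins did not move as a group. The 25 larval transcripts together summed to 353 to 1016 CPM at P:C 0.25, 606 to 856 CPM at P:C 0.40, 1414 to 1960 CPM at P:C 0.55 and 922 to 1453 CPM at P:C 0.70, and their part in the other results was not tested.

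On the rising side the most complete list was DNA replication and the cell cycle. Of 63 transcripts 48 rose and 0 fell, with a median of 0.43, against 17.1% rising over all transcripts. The count was 9 without the first sample of P:C 0.25, 19 without the first sample of P:C 0.70 and 7 without its second. Over all transcripts 473, 777 and 433 rose in those fits, against 1701 with all samples. With all samples 61 of the 63 changes lay above 0. The summed level was 6848, 8675 and 7930 CPM at P:C 0.25, 8720, 9599 and 8275 CPM at P:C 0.40, 7374, 8679 and 9542 CPM at P:C 0.55, and 10870, 12080 and 9882 CPM at P:C 0.70. All samples of P:C 0.70 lay above every other sample, and the other 3 diets overlapped.

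PCNA-RA, the sliding clamp of DNA polymerase (chr2R:20261754-20262883), had 133, 144 and 136 CPM at P:C 0.25, 140.5, 168 and 146 CPM at P:C 0.40, 142, 160.0 and 163 CPM at P:C 0.55, and 202, 223 and 185 CPM at P:C 0.70. It rose by 0.52 (SE 0.10, adjusted p = 0.0019) and was higher in the last step (adjusted p = 0.0307). RnrL-RA, the large subunit of ribonucleotide reductase, which makes the DNA precursors, rose by 0.51 (SE 0.10, adjusted p = 0.00249), and the kinase Cdk2-RC, which overlaps another transcript, by 0.52 (SE 0.10). The securin pim-RA, which holds back the separation of sister chromatids (chr2L:10362989-10364092), had 33.5, 42.4 and 38.6 CPM at P:C 0.25, 40.5, 45.6 and 39.0 CPM at P:C 0.40, 30.4, 37.1 and 40.5 CPM at P:C 0.55, and 62.7, 81.5 and 60.1 CPM at P:C 0.70. Its change of 0.74 (SE 0.21, adjusted p = 0.0165) came with overlapping levels in the first 3 diets, and without P:C 0.70 its value was -0.128. In the last step of the replication list 1 of 63 members lay below 0 and the median was 0.41, within 0.31 to 0.48. The first step had a median of 0.13 and the middle one -0.07, whose range over the fits without 1 sample crossed 0.

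Of 50 germline and oocyte transcripts 32 rose and 0 fell, with a median of 0.34, against 17.1% rising over all transcripts. In this list 16 rose without the first sample of P:C 0.25 and 17 without the second sample of P:C 0.70. Over all transcripts 473 and 433 rose in those fits. me31B-RA, an RNA helicase of the oocyte that represses translation, had 1167, 1298 and 1240 CPM at P:C 0.25, 1432, 1497 and 1294 CPM at P:C 0.40, 1367, 1437 and 1441 CPM at P:C 0.55, and 1615, 1779 and 1536 CPM at P:C 0.70. It rose by 0.37 (SE 0.07, adjusted p = 0.00281). osk-RC, the posterior determinant of the oocyte, rose by 0.465 (SE 0.10), and zpg-RB, a gap junction protein of the germline, by 0.34 (SE 0.07), both overlapping another transcript. The medians of the germline list were 0.19 in the first step, -0.01 in the middle and 0.12 in the last, with 0.205 in the first and 0.209 in the last with scaling by library size alone, and the range without 1 sample was 0.14 to 0.24 in the first step and 0.09 to 0.22 in the last. The 2 outer medians are therefore not separated by that range.

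Of 29 eggshell transcripts 1 rose and 0 fell, with a median of -0.09. Both counts were below the 17.1% rising and 19.6% falling over all transcripts. The list lay above 0 in the first step (median 0.35, 0.21 to 0.48 without 1 sample, 0 of 29 members below 0) and below it in the last (median -0.30, -0.52 to -0.19 without 1 sample, 26 of 29 below 0). Its summed level nevertheless overlapped between neighbouring diets, at 13190 to 21010 CPM at P:C 0.25 and 17000 to 23640 CPM at P:C 0.40. At P:C 0.55 it was 15590 to 22080 CPM and at P:C 0.70 14350 to 19050 CPM. The member that rose was Pxt-RB, a peroxidase, which had 438, 485 and 491 CPM at P:C 0.25, 541, 583 and 513 CPM at P:C 0.40, 492, 558 and 601 CPM at P:C 0.55, and 682, 736 and 617 CPM at P:C 0.70, a change of 0.48 (SE 0.09, adjusted p = 0.0021). Of the 9 transcripts of yolk protein and lipid transport 1 rose and 2 fell, against 36.7% called in either direction over all transcripts. The vitellogenin receptor yl-RA rose by 0.34 (SE 0.09, adjusted p = 0.0108), and the lipoprotein receptor LpR1-RD and the lipid transfer protein Apoltp-RC fell by 0.48 (SE 0.10) and 0.77 (SE 0.18). The yolk proteins themselves were at -0.11 for Yp1-RB, -0.16 for Yp2-RB and 0.00 for Yp3-RB (adjusted p = 0.573, 0.419 and 0.988).

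**Figure D4:**
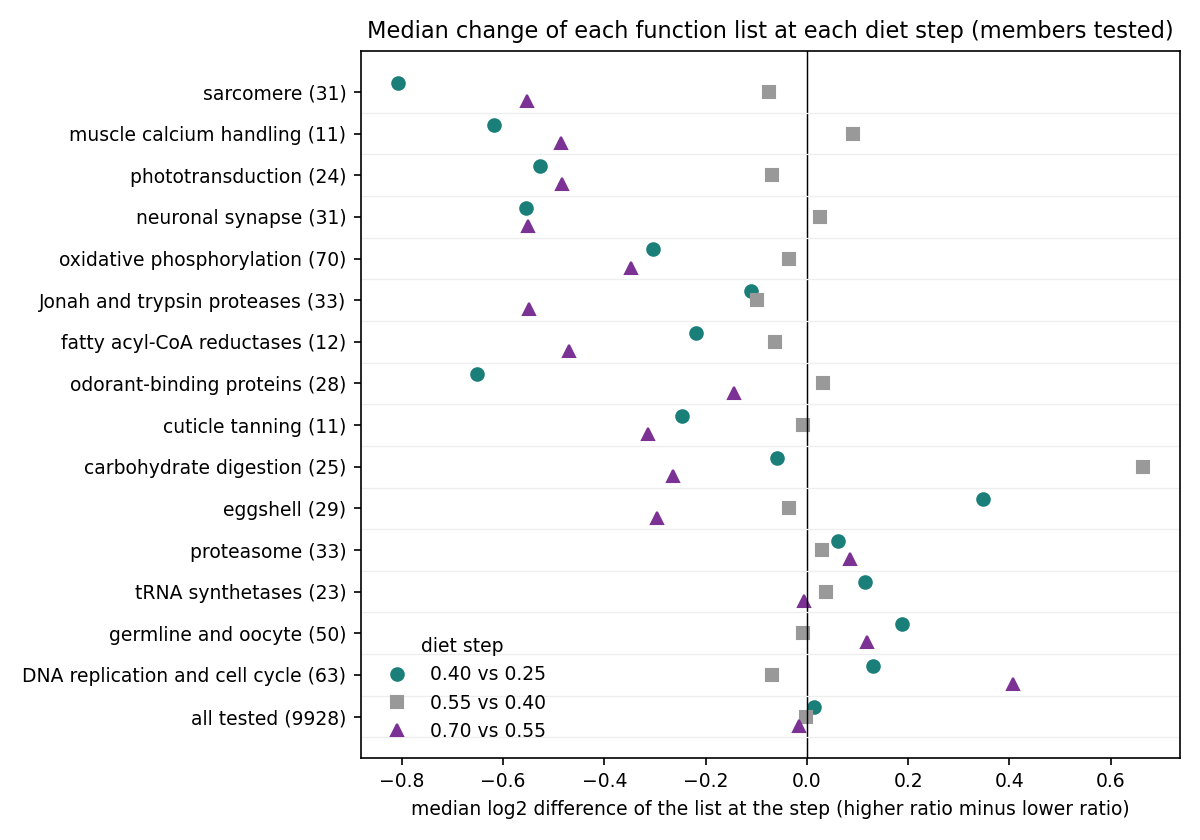
Median log2 change of the members of 15 function lists, and of all tested transcripts, in the first, middle and last step of the P:C series. Muscle, photoreceptor, synapse and oxidative phosphorylation lists are below 0 in both outer steps and near 0 in the middle, proteases are low and replication is high in the last step, and carbohydrate digestion is high in the middle step.

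Members of biosynthesis lists changed by less. Of 72 mitochondrial ribosomal proteins 13 rose and 0 fell (median 0.175), of 23 tRNA synthetases 10 rose and 1 fell (median 0.17), of 36 ribosome biogenesis transcripts 12 rose and 1 fell (median 0.15), and of 33 tested proteasome transcripts 11 rose and 0 fell (median 0.15). These counts are above or, for mitochondrial ribosomal proteins, near the 17.1% of all transcripts that rose. Without the first sample of P:C 0.25 they were 3, 2, 5 and 2 in the order given, without the first sample of P:C 0.70 they were 4, 6, 5 and 4, and without its second sample 3, 4, 6 and 0. The rising count over all transcripts also dropped in those fits, from 1701 to 473, 777 and 433. Without the third sample of P:C 0.25 mitochondrial ribosomal proteins had 5 rising members, tRNA synthetases 3 and ribosome biogenesis 7. Without the first sample of P:C 0.40 mitochondrial ribosomal proteins and ribosome biogenesis had 6 each, and without the third sample of P:C 0.70 ribosome biogenesis had 7.

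Tif-IA-RA, an initiation factor of RNA polymerase I, which transcribes ribosomal RNA, rose by 0.35 (SE 0.06, adjusted p = 0.00146), with 121, 121 and 113 CPM at P:C 0.25 and 158, 152 and 148 CPM at P:C 0.70. The pseudouridine synthase Nop60B-RF rose by 0.26 (SE 0.06), and the proteasome subunit Rpn5-RA by 0.22 (SE 0.06). Cytoplasmic ribosomal proteins showed no such rise, with 0 of 78 rising, against 17.1% over all transcripts. RpS5a-RB fell by 0.29 (SE 0.09), and the median of the list was -0.07. Of 42 translation factors 3 rose and 1 fell, both below the 17.1% rising and 19.6% falling over all transcripts. The rising count was 8 with library size alone, where 2192 of all 9928 tested transcripts rose. It was 1 without any sample of P:C 0.25 or the third of P:C 0.70, and 0 without the second of P:C 0.70. The one that fell was Ef1alpha100E-RD, an elongation factor, which changed by -1.04 (SE 0.14).

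In TOR and insulin signalling 5 of 35 transcripts rose and 2 fell, neither above the 17.1% rising and 19.6% falling over all transcripts, and the rising count was 1 without the first sample of P:C 0.25 or the second of P:C 0.70 and 3 without the third of P:C 0.25. The median of -0.04 turned positive with scaling by library size alone. Pi3K21B-RE, the regulatory subunit of phosphoinositide 3-kinase, had 131, 137 and 134 CPM at P:C 0.25, 144, 148 and 144 CPM at P:C 0.40, 145, 153 and 166 CPM at P:C 0.55, and 168, 184 and 160.1 CPM at P:C 0.70, a change of 0.34 (SE 0.06, adjusted p = 0.00168). CG8783-RA (Nprl3), part of a complex that restrains TOR, rose by 0.43 (SE 0.12), and daw-RC, a TGF-beta ligand, fell by 0.83 (SE 0.24).

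Of 41 transcripts of amino acid catabolism 4 rose and 4 fell, both counts below the shares over all transcripts. Either count was 2 without the first sample of P:C 0.25 or the first of P:C 0.70, the rising count was also 2 without the second sample of P:C 0.25 or the first of P:C 0.40, and the falling one was 2 without the second sample of P:C 0.70 and 9 without the first of P:C 0.55. The aspartate aminotransferases Got1-RB and Got2-RB rose by 0.31 (SE 0.07) and 0.35 (SE 0.07), the second of them overlapping another transcript. CG1461-RB (Tat, tyrosine aminotransferase), which also overlaps another transcript, fell by 1.05 (SE 0.16).

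Of 44 tested cuticle proteins 19 fell and 0 rose (median -0.77, 15 members above 0), against 19.6% falling over all transcripts, and of 11 tested tanning transcripts 7 fell (median -0.635). Many cuticle proteins had few counts, with 28 of the 136 in the table at 0 in all samples. Of the falls, 12 were left where every sample had at least 10 counts. Cpr49Ae-RA, a cuticle protein, had 310, 148 and 198 CPM at P:C 0.25, 105, 63.6 and 123 CPM at P:C 0.40, 152, 71.4 and 93.9 CPM at P:C 0.55, and 42.7, 40.2 and 45.3 CPM at P:C 0.70, a change of -2.06 (SE 0.35, adjusted p = 0.00124). Ddc-RB, dopa decarboxylase, which overlaps another transcript, changed by -1.03 (SE 0.16), and b-RB, which makes beta-alanine for tanning, by -1.06 (SE 0.16). The first sample of P:C 0.25 had the highest level of Cpr49Ae-RA, and the summed cuticle list was likewise highest there, at 1096 CPM, against 561 and 738 CPM in the other samples of that diet.

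Of 28 tested odorant-binding proteins 12 fell and 1, Obp99a-RB, rose (median -0.61), against 19.6% falling and 17.1% rising over all transcripts. Here the first step carried the change of the median member, at -0.65 (-0.69 to -0.54 without 1 sample), against 0.03 in the middle and -0.14 in the last. The summed level of the list did not separate the diets. It was 652 to 739 CPM at P:C 0.25, 620 to 682 CPM at P:C 0.40, 680 to 843 CPM at P:C 0.55 and 580 to 714 CPM at P:C 0.70. Obp83a-RB, which is made in the antenna, had 12.4, 15.5 and 14.8 CPM at P:C 0.25, 1.93, 2.33 and 2.14 CPM at P:C 0.40, 0.504, 1.88 and 2.71 CPM at P:C 0.55, and 2.81, 0.856 and 2.46 CPM at P:C 0.70. It fell by 3.11 on the log2 scale (SE 0.59, adjusted p = 0.00217), and all of the drop lay between P:C 0.25 and the other 3 diets, which overlapped.

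Of 96 tested cytochromes P450 and glutathione transferases 28 fell and 5 rose (median -0.39), against 19.6% falling and 17.1% rising over all transcripts. Without the first sample of P:C 0.25 16 fell, where 1348 of all 10035 tested transcripts fell. Without the second of P:C 0.70 14 fell, where 1205 of 10038 did. Cyp6w1-RA and Cyp6a8-RA, cytochromes P450, fell by 1.26 (SE 0.18) and 1.92 (SE 0.28). Of 26 tested antimicrobial and Bomanin peptides 8 fell and 0 rose (median -0.73), and 14 fell without the first sample of P:C 0.55. Bomanin IM3-RB had 133, 130.1 and 160.0 CPM at P:C 0.25, 121, 63.8 and 75.4 CPM at P:C 0.40, 133, 63.2 and 67.8 CPM at P:C 0.55, and 47.0, 42.1 and 52.6 CPM at P:C 0.70, a change of -1.40 (SE 0.28, adjusted p = 0.00299). The first samples of P:C 0.40 and P:C 0.55 lay within the range of P:C 0.25 or close to it, so the inner diets were uneven. Of 13 tested peptidoglycan recognition proteins and lysozymes 5 fell and 1 rose.

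Large changes were also found outside the lists. Where the mean log2 CPM was over 3 and no other transcript overlapped, the largest fall belonged to CG3264-RB (Alp8, an alkaline phosphatase), with 112, 116 and 129 CPM at P:C 0.25, 19.6, 9.86 and 8.46 CPM at P:C 0.40, 18.8, 11.3 and 4.47 CPM at P:C 0.55, and 0, 0.357 and 0.568 CPM at P:C 0.70. A second alkaline phosphatase, CG3290-RA (Alp2, chr2R:22206005-22207987), had 349, 194 and 185 CPM at P:C 0.25, 73.8, 55.7 and 45.4 CPM at P:C 0.40, 59.0, 54.2 and 31.6 CPM at P:C 0.55, and 23.3, 17.2 and 21.8 CPM at P:C 0.70. The change of CG3290-RA was -3.38 (SE 0.35, adjusted p = 0.000138), and the samples of both phosphatases overlapped only between the inner diets.

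CG8560-RB fell evenly. It had 197.5, 164 and 195 CPM at P:C 0.25, 148, 149 and 166 CPM at P:C 0.40, 134, 131 and 137 CPM at P:C 0.55, and 108, 109 and 122 CPM at P:C 0.70, a change of -0.705 (SE 0.075, adjusted p = 0.000138) with steps of -0.26, -0.205 and -0.245. CG31262-RB rose evenly, with 20.5, 22.4 and 20.1 CPM at P:C 0.25, 22.3, 25.9 and 22.9 CPM at P:C 0.40, 26.7, 24.7 and 27.0 CPM at P:C 0.55, and 30.2, 31.1 and 29.1 CPM at P:C 0.70, a change of 0.51 (SE 0.08, adjusted p = 0.000803). CG43673-RA (chrX:15779146-15780214), by contrast, had 93.8, 90.3 and 88.8 CPM at P:C 0.25, 73.2, 73.5 and 83.1 CPM at P:C 0.40, 63.8, 71.7 and 68.0 CPM at P:C 0.55, and 40.5, 37.8 and 40.5 CPM at P:C 0.70. It changed by -1.12 (SE 0.13, adjusted p = 0.000202), with the largest drop in the last step (adjusted p = 0.00217).

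How far each diet step carried the response was described over all called transcripts. On a straight line each step holds 33.3% of the difference between the outer diets, and the slope itself weights the first, middle and last step by 3, 4 and 3, so the called transcripts were chosen with the steps in view and these shares are a description. Among rising transcripts the median share was 36.5% in the first step, 1.17% in the middle and 62.3% in the last. Among falling transcripts it was 44.4%, 4.76% and 51.3%. All tested transcripts had medians of 41.0%, -2.65% and 62.0%, so the small middle share was not particular to the called ones. The first and last steps each share a diet mean with the difference between the outer diets, and the middle step shares none. A small middle share is therefore in part built into this measure.

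Step directions told the same for single transcripts. The middle step ran in the direction of the difference between the outer diets for 52.4% of rising and 61.4% of falling transcripts. The first and last steps did so for 94.5% and 96.2% of rising and 96.0% and 97.6% of falling ones. Over all tested transcripts the first, middle and last steps ran in that direction for 81.0%, 46.9% and 86.9%. Much of this contrast was thus present in all transcripts, and it too is in part built into the measure, for the same reason. All 3 steps ran the same way for 744 rising (43.7%) and 1068 of the 1941 falling transcripts, against 25.6% of all tested. The rising count was 1150 without the first sample of P:C 0.55 and 452 without the third, where the middle step ran with the slope in 586 rising transcripts against 891 with all samples. The last step was the largest of the 3 for 1211 rising (71.2%) and 1037 falling transcripts (53.4%), the first for 375 and 786, and the middle for 115 and 118. Over all tested transcripts these shares were 55.5% for the last step, 31.9% for the first and 12.6% for the middle. The middle step was the largest for 179 rising and 202 falling transcripts without the second sample of P:C 0.40 and for 243 and 228 without the first sample of P:C 0.55. With scaling by library size alone it was the largest for 57 and 184, and the first step for 194 rising transcripts. The median share of the middle step lay within -12.2% to 17.2% for rising and -2.91% to 14.0% for falling transcripts when 1 sample was left out.

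The 2 outer steps share no sample, so each was also fitted on its own 6 samples and one set beside the other. Over 9545 transcripts tested in both, the log2 changes of the 2 steps had a Pearson r of 0.472 and a Spearman rho of 0.533, given as a description across transcripts, which are not independent replicates. Of 62 transcripts called lower in the first step 59 were also lower in the last, 10 of them called, with a median of -0.55, against 50.7% lower over all transcripts. Of 209 called lower in the last step 184 were lower in the first, with a median of -0.27, against 47.2% over all. Of 36 called higher in the last step 28 were higher in the first, and the 2 called higher in the first step were both lower in the last, neither of them called.

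**Figure D5:**
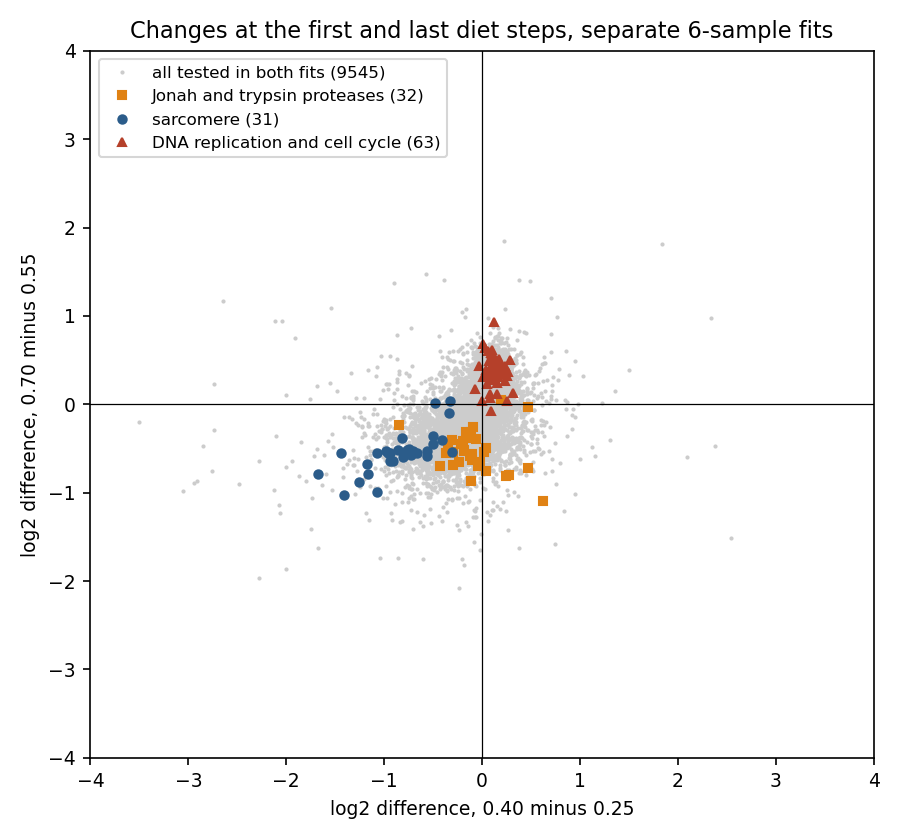
Log2 change in the step from P:C 0.55 to P:C 0.70 against that in the step from P:C 0.25 to P:C 0.40, each from its own 6 samples, for 9545 transcripts (3 lie outside the axes of ±4). Of the 62 transcripts called lower in the first step, 59 lie below 0 in the last.

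Few transcripts could be shown to leave the straight line. A joint test of curvature called 0.0201% of transcripts, which were CG8083-RC and CG9463-RB, while 1099 had an unadjusted p under 0.05 and DESeq2 called 48. The count was 4 and 5 without the first and second sample of P:C 0.25, 4 without the second of P:C 0.40 and 5 without the second of P:C 0.70, 1 without the third of P:C 0.70, and 0 without any other sample. A departure that misses the threshold does not show that a transcript follows a line.

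CG8083-RC (CNT2, a nucleoside transporter) had 24.2, 23.6 and 21.7 CPM at P:C 0.25, 13.8, 14.9 and 15.1 CPM at P:C 0.40, 23.7, 24.0 and 22.0 CPM at P:C 0.55, and 11.3, 11.3 and 13.2 CPM at P:C 0.70. It alternated, lower in the first step (adjusted p = 0.0133), higher in the middle (adjusted p = 0.0492) and lower in the last (adjusted p = 0.00251), and its departure from a line had an adjusted p of 0.0272. CG9463-RB (LManIII, a lysosomal alpha-mannosidase) had 12.1, 5.84 and 10.8 CPM at P:C 0.25, 4.13, 9.31 and 6.54 CPM at P:C 0.40, 38.2, 31.0 and 44.1 CPM at P:C 0.55, and 19.4, 14.1 and 16.6 CPM at P:C 0.70. Its level was highest at P:C 0.55, with adjusted p values of 0.00881 in the middle step and 0.025 in the last, and 0.0325 for the departure.

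The other transcripts called in the middle step, named after their values were seen, were CG8093-RB, CG3679-RB, CG9465-RB, Sodh-1-RA and Jon99Ci-RA, all higher at P:C 0.55 than at P:C 0.40. CG3679-RB, which overlaps another transcript, had 223, 229 and 232 CPM at P:C 0.25, 248, 267 and 280.1 CPM at P:C 0.40, 382, 363 and 371 CPM at P:C 0.55, and 364, 326 and 366 CPM at P:C 0.70. Its samples at P:C 0.55 and P:C 0.70 overlapped, and it rose along the series by 0.72 (SE 0.11, adjusted p = 0.00056).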

How the data were processed

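Polyadenylated RNA was measured in 12 samples of whole females, 3 per diet, grouped by the P:C ratio of the sample labels. The authors trimmed the reads (FastQC, Trim Galore), aligned them with HISAT2 to dm6 (BDGP6) and made raw counts per transcript in Seqmonk. The deposited counts are neither normalized nor filtered. Whether counting used strand is not given in the sources used here, and 4556 of the tested transcripts overlap another on the opposite strand, which is marked where such a transcript is named. Replicates are described as independent biological replicates.

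Counts were fitted with edgeR 4.0.16 (R 4.3.3; TMM, filterByExpr by diet, quasi-likelihood test, Benjamini-Hochberg adjusted p under 0.05, no fold minimum), and the ratio entered as a numeric term over its range of 0.45. The SE is the change divided by the square root of F. Steps and departure came from 1 fit with a level per diet. The deposited counts were also fitted with limma 3.58.1 (voom) and DESeq2 1.42.0. The alternatives were other size factors, library size alone, other filters, a fold minimum of 1.5, a replicate block, log2 of the ratio, fits of 6 samples, and leaving out each sample and each diet. The fits were tested on simulated data. Totals of 3 counts were taken as the floor.

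The members of the function lists were chosen with earlier results of these data known. Named transcripts were, in each direction, the 10 called with the smallest p and the 10 with the largest slope, with mean log2 CPM over 3 and no overlap, the 3 called members of each list with the smallest p, the 2 called per step and direction, and up to 4 called departures, of which there were 2. Members that failed a test or belong to a small count were named after their values were seen. Replicates of a diet differed by more than sampling noise, so none were merged. Promoter motifs were not analysed here.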

Additional observations from a re-analysis of the deposited data

How the results depend on the processing

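Along the whole series the counts of calls kept their size under DESeq2, DESeq2's size factors, library size alone, both other filters, limma-voom and log2 of the ratio. They moved to 43 without P:C 0.25, 110 without P:C 0.70 and 1561 with a 1.5-fold minimum, and lay between 1638 and 4521 when 1 sample was left out. The first step had 221 calls with library size alone, 69 in a fit of its own 6 samples and 446 with DESeq2, and 8 to 433 when 1 sample was left out. The middle step had 4 calls with at least 10 counts in every sample, 4 in its own 6 samples and 26 with DESeq2, and 0 to 12 without 1 sample. The last step had 253 calls in its own 6 samples, 1443 with DESeq2 and 304 with a 1.5-fold minimum, and 36 to 1938 without 1 sample. The departure had 14 calls without a filter, 48 with DESeq2 (1 of them shared) and 0 to 5 without 1 sample. The cause of these differences was not tested, beyond the smaller number of samples where samples were left out.

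Replicate numbers recur in each diet, but the deviations of 18 same-numbered pairs had correlations between -0.337 and 0.342, 4 of them over 0.1, and 3 of 12 samples matched best with their own number, so the numbers were not read as pairs. With the replicate block there were 3596 calls along the series, 237 in the first step, 6 in the middle, 1296 in the last and 1 departure, which was neither CG8083-RC nor CG9463-RB.

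The median shares of the steps moved with library size alone to 71.3% (rising, last) and 44.4% (falling, last), and with the linear contrast of the fit by diet and a 1.5-fold minimum together to 19.5% (rising, middle) and 46.8% (rising, last). Without 1 sample, rising shares were 26.2% to 44.8%, -12.2% to 17.2% and 47.6% to 74.9%, and falling ones 35.1% to 52.3%, -2.91% to 14.0% and 41.9% to 58.9%.

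Over all tested transcripts 43 of 9792 were called without P:C 0.25 and 110 of 9856 without P:C 0.70. Without P:C 0.25, the counts of list members called were 0 (sarcomere, oxidative phosphorylation, phototransduction, replication, germline), 1 (synapse, carbohydrate digestion) and 3 (proteases). Without P:C 0.70 they were 13 (sarcomere), 1 (oxidative phosphorylation), 2 (synapse, phototransduction), 3 (carbohydrate digestion) and 0 (proteases, replication, germline). Among members that overlap no other transcript they were 20 of 20, 36 of 37, 13 of 15, 14 of 15, 29 of 36, 13 of 23 and 4 of 15 for sarcomere, oxidative phosphorylation, synapse, phototransduction, replication, germline and carbohydrate digestion. Without 1 sample they were 29 to 31, 64 to 68, 22 to 29, 23, 7 to 55, 16 to 32 and 7 to 8 in that order, and 14 to 23 for proteases.

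Of 2898 checks of 121 named transcripts, 2639 kept direction and call, 244 lost the call, 12 gained it and 3 reversed, all 3 without P:C 0.70, where pim-RA was at -0.128, rnh1-RA at -0.177 and CG15043-RB at 0.155. Of the lost calls 109 came without P:C 0.25 and 83 without P:C 0.70. The promoter alternatives were not run. Depth limits transcripts under about 3 counts.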

Other observations

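Heat shock proteins varied between samples of the same diet. Hsp70Aa-RA, an inducible chaperone with near copies, had 31.0, 1.37 and 15.7 CPM at P:C 0.25, 0.258, 2.60 and 1.35 CPM at P:C 0.40, 16.4, 13.8 and 1.76 CPM at P:C 0.55, and 3.44, 9.99 and 13.7 CPM at P:C 0.70. The medians of the 23 transcripts were -1.34, 0.78 and -0.29 in the 3 steps, and ranged over -1.45 to -0.91, 0.31 to 1.28 and -0.62 to -0.12 when 1 sample was left out. Along the series 2 of the 23 fell, Hsc70-1-RD by 1.26 (SE 0.19) and l(2)efl-RC, a small heat shock protein that overlaps another transcript, by 0.80 (SE 0.17). In purine and urate metabolism 3 of 21 transcripts rose and 4 fell, both near the 17.1% and 19.6% over all transcripts. Adk1-RB, an adenylate kinase, fell by 0.93 (SE 0.14), and ade5-RB (Paics), an enzyme of purine synthesis, by 0.63 (SE 0.14). The rising count there was 1 without any sample of P:C 0.70, the first or the third sample of P:C 0.25 or the first of P:C 0.40, and the falling count 2 without the first or the third sample of P:C 0.25 or the first or second of P:C 0.70.

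Among transcripts outside the lists, Acph-1-RA, an acid phosphatase, rose in small steps, with 66.2, 69.1 and 71.2 CPM at P:C 0.25, 78.7, 77.9 and 76.0 CPM at P:C 0.40, 73.9, 79.2 and 88.9 CPM at P:C 0.55, and 92.5, 91.5 and 94.4 CPM at P:C 0.70, a change of 0.405 (SE 0.07, adjusted p = 0.00105). Both outer diets stood apart from the rest, and the inner diets overlapped. The growth factor miple-RC fell by 1.02 on the log2 scale (SE 0.11), with 26.9, 27.1 and 22.3 CPM at P:C 0.25 and 12.2, 11.5 and 13.1 CPM at P:C 0.70.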
